A study of Mus musculus with 16 samples.

Results

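The genes described here make cholesterol or sense how much of it a cell holds. There were 8 of them, covered by 11 probes and chosen by name, with earlier results of these data known. They were Hmgcs1, Idi1, Fdft1, Sqle, Lss and Dhcr7 of the synthesis route, and Srebf2 and Insig1 of its control. Every probe whose RefSeq entry maps to 1 of these symbols was taken, and all 8 genes were among the 17436 genes tested on the array. Fdft1 had 2 probes, Lss had 3 and the other members had 1 each, and all 11 were well above background and below saturation on all 16 arrays.

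The RNA came from the cerebral cortex of male mice aged 28 to 42 weeks on a C57BL/6 background, with 4 mice in each of 4 groups and 1 single-colour Agilent array per mouse. The groups were Neil1-/- mice 20 h after whole-body gamma radiation of 6 Gy, Neil1-/- mice after a sham exposure, wild-type littermates 20 h after the same dose, and wild-type littermates after sham. Neil1 codes for a DNA glycosylase, an enzyme that cuts oxidised bases out of DNA. According to the protocols the dose was given at 0.74 Gy/min, and the mice received 2 injections of the thymidine analogue BrdU (100 mg/kg), 1 ahead of the exposure and 1 at 2 h past it. The Neil1 probe went against the genotype labels. It was 2.62-fold brighter in irradiated mice labelled knockout than in irradiated wild types, and 2.42-fold brighter in sham mice labelled knockout than in sham wild types (p = 0.0286 in both cases, two-sided exact permutation test, which with 4 arrays a side can give no smaller p). No source used here gives where this probe lies relative to the deleted stretch, so it checks nothing, and every genotype direction below rests on the labels alone. Each genotype was hybridised on 1 slide of its own, so genotype and slide cannot be told apart. Irradiated and sham RNA lay in different rows of each slide, the same way on both, so irradiation and slide row cannot be told apart either. The replicate numbers of the labels followed the slide columns.

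Cholesterol is built from acetyl-CoA through mevalonate, isoprenoid units and squalene, and the adult brain makes its own, since plasma lipoproteins do not cross the blood-brain barrier. SREBP2, the product of Srebf2, is a transcription factor held in the endoplasmic reticulum by SCAP and INSIG proteins when sterols are plentiful. When sterols fall, SCAP escorts it to the Golgi, where proteases release its active part, which binds sterol regulatory elements at the genes of synthesis and uptake and at Insig1 itself.

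Promoter sequence was searched for exact matches to a single form of those elements, among other motifs. Other forms were not sought, so a window without a match is not shown to lack an element. RefSeq windows (build GRCm38.p6, 250 bases before to 50 after each start) were matched for 6 of the 8 members, that is Hmgcs1, Idi1, Lss, Dhcr7, Srebf2 and Insig1. Those of the 2 members called between genotypes (Lss, Insig1) and of the pair that varied together between mice (Hmgcs1, Idi1) are shown on the plus strand, on which all of them lie. Capitals mark 3 motifs sought on both strands after the sequences had been seen: TCACCCCA, the core of the sterol element known from the LDL receptor promoter, CCAAT, read as ATTGG on the other strand and bound by NF-Y, and the E-box CACGTG.
Hmgcs1, chr13:119690101-119690400: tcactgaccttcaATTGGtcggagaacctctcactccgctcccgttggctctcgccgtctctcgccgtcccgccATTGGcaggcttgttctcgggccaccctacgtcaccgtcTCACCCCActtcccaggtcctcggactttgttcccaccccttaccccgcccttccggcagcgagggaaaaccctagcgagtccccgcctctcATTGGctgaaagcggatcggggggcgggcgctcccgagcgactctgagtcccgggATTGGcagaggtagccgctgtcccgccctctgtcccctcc
Idi1, chr13:8885356-8885655: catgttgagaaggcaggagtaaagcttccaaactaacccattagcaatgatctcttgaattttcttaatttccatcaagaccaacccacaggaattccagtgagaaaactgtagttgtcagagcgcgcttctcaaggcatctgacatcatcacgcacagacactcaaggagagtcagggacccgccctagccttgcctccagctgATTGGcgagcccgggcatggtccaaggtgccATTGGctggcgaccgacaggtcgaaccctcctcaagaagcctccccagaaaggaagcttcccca
Lss, chr10:76531355-76531654: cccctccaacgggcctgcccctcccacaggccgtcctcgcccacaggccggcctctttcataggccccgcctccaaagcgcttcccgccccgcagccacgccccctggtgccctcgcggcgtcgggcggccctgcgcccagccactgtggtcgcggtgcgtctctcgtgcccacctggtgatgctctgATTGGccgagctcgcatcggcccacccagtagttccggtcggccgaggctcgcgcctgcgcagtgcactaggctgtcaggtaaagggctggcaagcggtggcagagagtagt
Insig1, chr5:28071162-28071461: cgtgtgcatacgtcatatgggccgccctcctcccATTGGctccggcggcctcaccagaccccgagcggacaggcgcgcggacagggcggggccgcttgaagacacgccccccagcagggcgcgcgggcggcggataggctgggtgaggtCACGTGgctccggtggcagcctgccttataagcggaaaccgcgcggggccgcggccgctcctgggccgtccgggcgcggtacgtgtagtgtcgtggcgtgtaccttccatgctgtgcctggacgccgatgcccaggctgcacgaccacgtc

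TCACCCCA stood in the Hmgcs1 window at position -137 from the start and in the Srebf2 window (chr15:82147019-82147318) at -162, and 1.56% of 32851 promoter windows held it. CCAAT, present in 37.4% of all windows, was found in the windows of Hmgcs1, Idi1, Lss, Srebf2 and Insig1 and in 1 of the 3 windows of Dhcr7. The E-box stood in the Insig1 window at -101 and in another of the Dhcr7 windows, against 7.15% of all windows. These matches describe the letters of the windows and draw nothing about binding.

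Values are log2 spot signals minus the 75th percentile of the array, so a value of 0 is a spot as bright as that percentile. The percentile was itself lowest in irradiated knockout arrays, at 1333 ± 301 signal units, against 1778 ± 343 in sham knockouts, 2301 ± 235 in irradiated wild types and 2415 ± 274 in sham wild types (SD, n = 4 each). Differences are given with limma's moderated test, adjusted by Benjamini-Hochberg over all 17436 genes from the brightest probe of each.

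After irradiation, labelled knockouts had more Insig1 RNA and less signal at the brightest Lss probe than wild types, and these were the only 2 of the 8 members called in any of the 6 contrasts fitted. Irradiation itself moved none of the 8 past the threshold in either genotype. Hmgcs1, Idi1, Fdft1, Sqle and Dhcr7 had overlapping groups in every contrast between groups. Srebf2 lay higher in knockouts in both treatments without being called.

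**Figure D1:**
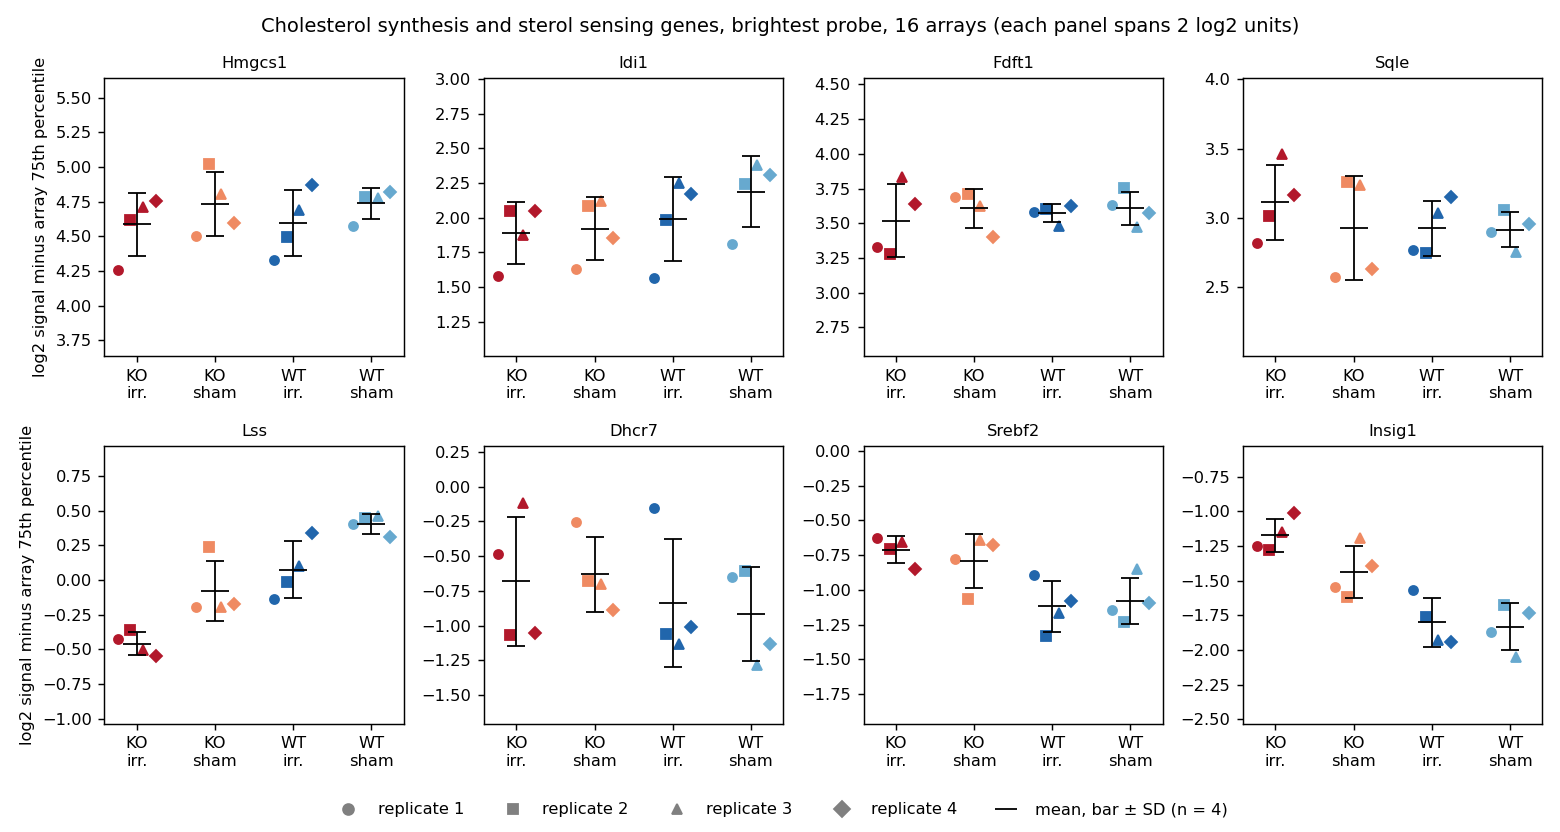
Each panel plots 1 gene (brightest probe) as the log2 signal minus the array's 75th percentile on the y axis, 1 point per array, with a marker shape for each replicate number and the group mean ± SD in black. Groups run from irradiated knockout to sham wild type along the x axis. Insig1 and Srebf2 sit higher in the knockout groups, the brightest Lss probe is lowest in irradiated knockouts and highest in sham wild types, and the other members overlap across the 4 groups.

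Hmgcs1, which makes HMG-CoA at the entry of the mevalonate route, read 4.26, 4.62, 4.71 and 4.76 in irradiated knockouts and 4.50, 5.02, 4.81 and 4.59 in sham knockouts. In wild types the values were 4.33, 4.50, 4.69 and 4.87 after irradiation and 4.57, 4.78, 4.78 and 4.82 after sham. The 4 groups overlapped throughout. Over both genotypes the irradiation difference was -0.14 log2 units (95% interval -0.37 to 0.08, adjusted p = 1), and the genotype difference was -0.01 in irradiated as well as in sham mice.

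Idi1 converts isopentenyl diphosphate to its reactive isomer. It read 1.58, 2.05, 1.88 and 2.05 in irradiated knockouts and 1.63, 2.08, 2.12 and 1.85 in sham knockouts. Irradiated wild types read 1.56, 1.98, 2.25 and 2.17, and sham wild types read 1.81, 2.24, 2.38 and 2.31. Replicate 1 was the lowest array in each of the 4 groups, and the groups overlapped. The irradiation difference over both genotypes was -0.11 (95% interval -0.38 to 0.15, adjusted p = 1). Genotype differences were -0.10 after irradiation (adjusted p = 0.825) and -0.26 in sham mice (adjusted p = 0.788).

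Fdft1, squalene synthase, joins 2 farnesyl diphosphates into squalene, the step that commits the route to sterols. Its brighter probe read 3.32, 3.27, 3.83 and 3.64 in irradiated knockouts, 3.69, 3.71, 3.63 and 3.40 in sham knockouts, 3.58, 3.60, 3.48 and 3.62 in irradiated wild types, and 3.63, 3.75, 3.47 and 3.57 in sham wild types. Irradiated knockouts were the most scattered group (SD 0.27) and irradiated wild types the least (SD 0.06). The irradiation difference over both genotypes was -0.06 (95% interval -0.25 to 0.13), and the second probe gave 0.07 (-0.16 to 0.30), so the probes differed in sign within an interval that spans 0 for each.

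Sqle, squalene epoxidase, is a regulated, oxygen-dependent step. It read 2.82, 3.01, 3.46 and 3.17 in irradiated knockouts, 2.57, 3.26, 3.24 and 2.63 in sham knockouts, 2.77, 2.75, 3.04 and 3.15 in irradiated wild types, and 2.90, 3.05, 2.75 and 2.96 in sham wild types. Sham knockouts split into 2 high and 2 low arrays, and all groups overlapped. The difference was 0.10 for irradiation over both genotypes (95% interval -0.17 to 0.37) and 0.19 for genotype after irradiation (-0.19 to 0.57).

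Dhcr7, 7-dehydrocholesterol reductase, catalyses the last step of the Kandutsch-Russell branch. Of the members it varied most between mice of a group, with a pooled SD of 0.39 that lay at the 75.9th percentile of all genes. It read -0.49, -1.07, -0.12 and -1.05 in irradiated knockouts, -0.25, -0.68, -0.70 and -0.89 in sham knockouts, -0.15, -1.06, -1.13 and -1.01 in irradiated wild types, and -0.65, -0.61, -1.28 and -1.13 in sham wild types. The groups overlapped, and 1 bright array stood apart from the other 3 in irradiated wild types. Its irradiation difference of 0.01 had a 95% interval from -0.38 to 0.41, and its genotype difference after irradiation of 0.16 had one from -0.40 to 0.72, the widest intervals among the members in these contrasts.

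Lss, lanosterol synthase, closes squalene epoxide into the first sterol of the route. Its brightest probe, A_52_P118161, read -0.43, -0.36, -0.51 and -0.55 in irradiated knockouts and -0.20, 0.24, -0.19 and -0.17 in sham knockouts. Irradiated wild types read -0.14, -0.01, 0.10 and 0.34, and sham wild types read 0.40, 0.45, 0.46 and 0.31. All 4 irradiated knockouts lay below all arrays of the other 3 groups, and all 4 sham wild types lay above both knockout groups. After irradiation the probe was 1.45-fold lower in knockouts than in wild types (log2 difference -0.53 ± 0.12 SE, 95% interval -0.79 to -0.28, adjusted p = 0.0453), and in sham mice the difference was -0.48 ± 0.12 (adjusted p = 0.343).

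For irradiation minus sham the same probe differed by -0.38 in knockouts (adjusted p = 0.686, groups not overlapping) and by -0.33 in wild types (adjusted p = 0.9998, groups overlapping). Averaged over genotypes this was -0.35 ± 0.08 SE (adjusted p = 0.165), with an unadjusted p of 0.000842. These contrasts share arrays with the genotype contrasts, so they are not separate evidence.

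The other 2 Lss probes were not called in any contrast. A_55_P2807240 differed in the same direction as the brightest probe, but by less. Tested by itself, it gave -0.19 for genotype in sham mice. For irradiation it gave -0.10 in knockouts and -0.16 in wild types. A_51_P296487 went the other way for genotype in sham mice (0.14). Probe A_55_P2807240 read -0.50, -0.04, -0.50 and -0.49 in irradiated knockouts, -0.53, -0.02, -0.24 and -0.36 in sham knockouts, -0.55, -0.35, -0.24 and 0.10 in irradiated wild types, and -0.11, -0.03, -0.36 and 0.12 in sham wild types. Probe A_51_P296487 read -1.86, -1.89, -1.91 and -1.97 in irradiated knockouts, -1.87, -1.87, -1.73 and -2.0 in sham knockouts, -1.96, -2.17, -2.16 and -1.74 in irradiated wild types, and -1.77, -1.95, -2.29 and -2.04 in sham wild types. Both had overlapping groups. With each probe tested by itself, the genotype difference after irradiation was -0.53 for the brightest probe (adjusted p = 0.0282), -0.12 for A_55_P2807240 (95% interval -0.48 to 0.23, adjusted p = 0.748) and 0.10 for A_51_P296487 (-0.17 to 0.37, adjusted p = 0.73). The Lss call is therefore a call of 1 probe of 3, and which transcripts each probe reads was not tested.

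**Figure D2:**
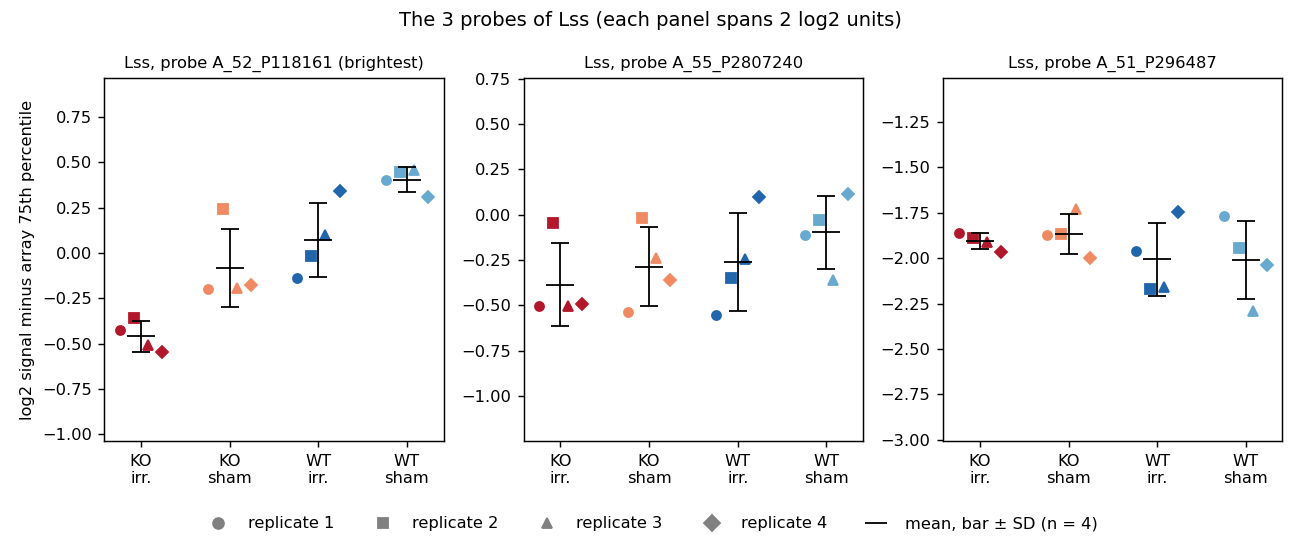
The 3 probes of Lss are plotted from left to right by brightness, with the log2 signal minus the array's 75th percentile on the y axis and 1 point per array, over the 4 groups on the x axis (mean ± SD in black, n = 4). The brightest probe averages -0.46 in irradiated knockouts and 0.40 in sham wild types, while the groups of the other probes overlap.

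Srebf2 codes for SREBP2, the regulator of the route. It read -0.63, -0.70, -0.66 and -0.85 in irradiated knockouts and -0.78, -1.07, -0.64 and -0.68 in sham knockouts. Irradiated wild types read -0.89, -1.34, -1.17 and -1.08, and sham wild types read -1.14, -1.24, -0.85 and -1.09. Irradiated knockouts lay above all irradiated wild types, while the sham groups overlapped. The genotype difference was 0.41 ± 0.12 SE after irradiation (95% interval 0.14 to 0.67, adjusted p = 0.112) and 0.29 ± 0.12 in sham mice (adjusted p = 0.601). Irradiation differed from sham by 0.02 over both genotypes (95% interval -0.17 to 0.21).

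Insig1 holds SCAP and SREBP2 in the endoplasmic reticulum and is itself a target of SREBP2. It read -1.25, -1.28, -1.15 and -1.01 in irradiated knockouts and -1.55, -1.61, -1.19 and -1.39 in sham knockouts. Irradiated wild types read -1.56, -1.76, -1.93 and -1.94, and sham wild types read -1.87, -1.67, -2.05 and -1.73. Within each treatment all 4 knockouts lay above all 4 wild types. After irradiation Insig1 was 1.54-fold higher in knockouts (log2 difference 0.63 ± 0.12 SE, 95% interval 0.36 to 0.89, adjusted p = 0.0285). In sham mice the difference was 0.39 ± 0.12 (95% interval 0.13 to 0.66, adjusted p = 0.424).

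Irradiation differed from sham in Insig1 by 0.26 in knockouts (adjusted p = 0.9995) and by 0.03 in wild types (adjusted p = 0.9998). The difference between those responses, 0.23 with a 95% interval from -0.14 to 0.61, was not called (adjusted p = 0.9999). A genotype difference past the threshold after irradiation and not in sham mice is not by itself a test of that change.

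The members were chosen with earlier results of these data known. Their shares beside those of all genes are therefore a description and test no enrichment. Set against all genes, 2 of 8 members were called between genotypes after irradiation, where 1.18% of the 17436 genes were called. In the other contrasts 0 of 8 members were called by limma: for genotype in sham mice beside 0.0516% of all genes, for irradiation in knockouts beside 0.12%, for irradiation in wild types beside 0.0746%, for the mean irradiation difference beside 0.304%, and for the interaction beside 0.0%. At an unadjusted p under 0.05 stood Insig1, Lss and Srebf2 for genotype after irradiation (16.6% of all genes) and in sham mice (7.69%), Lss alone for irradiation in knockouts (4.63%), in wild types (1.97%) and on average (5.0%), and no member for the interaction (1.27%).

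Groups did not overlap for 3 of 8 members between genotypes after irradiation (8.73% of all genes) and for 2 of 8 in sham mice (4.82%). Between treatments they did not overlap for 1 of 8 in knockouts (2.19%) and for 0 of 8 in wild types (1.97%). The members' median log2 difference was 0.07 for genotype after irradiation, with -0.03 over all genes, and -0.02 for irradiation over both genotypes, with 0.00 over all genes.

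Both calls were lost under several alternatives. Without 1 array at a time, the adjusted p of Insig1 ran from 0.0184 to 0.116 and stayed under 0.05 in 9 of 16 fits. It was lost without any 1 of irradiated knockout replicates 1, 2, 3 and 4 or irradiated wild-type replicates 2, 3 and 4, while the log2 difference stayed between 0.57 and 0.70. That of Lss ran from 0.0272 to 0.144 and stayed under 0.05 in 4 of 16 fits, those without sham knockout replicates 1, 2 or 4 or irradiated wild-type replicate 1, and its log2 difference lay between -0.60 and -0.44. With quantile normalization the adjusted p was 0.0638 for Insig1 (log2 difference 0.54) and 0.0583 for Lss (-0.54). With only the irradiated groups in the fit it was 0.104 for Insig1 and 0.146 for Lss. Srebf2 was called with the normexp background correction only (0.38, adjusted p = 0.0302), a setting under which 3378 genes were called in this contrast.

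**Figure D3:**
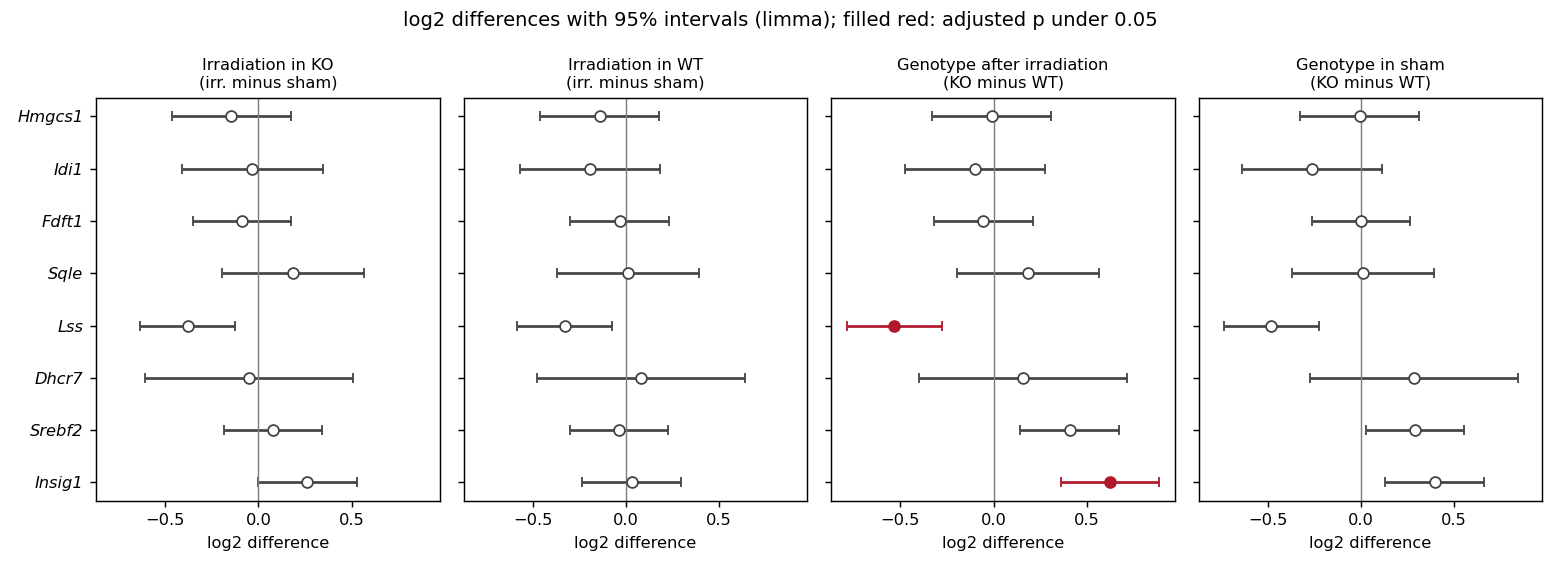
Each panel shows 1 contrast, with the log2 difference on the x axis, the 8 genes down the page, points for limma's estimate and bars for 95% intervals. The filled red points are Insig1 (0.63) and Lss (-0.53) between genotypes after irradiation, and no point is filled in the other panels.

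Array brightness and the markers of some cell types differed by labelled genotype beside these differences. The 75th percentile of signal was 1075 to 1766 in irradiated knockouts and 1976 to 2510 in irradiated wild types, without overlap. All 6 of 6 cortical excitatory neuron markers, among them Slc17a7 and Camk2a, were higher in knockouts, with a median log2 difference of 0.34 after irradiation and 0.32 in sham mice, and none was called. Their summed linear level, relative to the array's 75th percentile, was 121.7 to 148.4 in irradiated knockouts, 113.1 to 143.2 in sham knockouts, 86.2 to 124 in irradiated wild types and 76.2 to 103.5 in sham wild types. Of 6 astrocyte markers, 3 were higher after irradiation in knockouts and Slc1a2 was called, while the summed level was 32.1 to 36.6 in irradiated knockouts and 31.0 to 34.8 in irradiated wild types.

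Markers of oligodendrocytes, which build cholesterol-rich myelin, were higher in irradiated knockouts than in irradiated wild types for 8 of 8 (median 0.21, none called), with summed levels of 99.4 to 170.4 and 86.5 to 129.7. In sham mice 1 of 8 was higher and 7 were lower in knockouts (median -0.14, none called), with summed levels of 84.2 to 154.6 in sham knockouts and 89.2 to 153.4 in sham wild types. Irradiated knockouts exceeded sham knockouts in 7 of 8 of them, and irradiated wild types exceeded sham wild types in 0 of 8. For irradiation over both genotypes, 6 of 6 microglial markers were lower (median -0.18), and P2ry12 was called. Likewise 6 of 6 oligodendrocyte precursor markers were lower (median -0.27), and Gpr17 and Neu4 were called. In the same contrast 6 of 6 striatal markers were lower (median -0.12). Higher were 5 of 6 choroid plexus (median 0.43), 5 of 6 excitatory neuron (0.09), 4 of 8 oligodendrocyte, 3 of 6 astrocyte and 3 of 6 endothelial markers. None of the markers in these other lists was called. Between genotypes after irradiation, 0 of 6 precursor, 2 of 6 microglial, 3 of 6 endothelial, 2 of 6 choroid plexus and 3 of 6 striatal markers were higher in knockouts, and none was called. No marker list had a gene at background, the least well detected being above background on 14 of 16 arrays. The part of cell mixture or array brightness in the Insig1 and Lss differences was not tested, slide cannot be told apart from genotype, and in whole cortex fewer cells of a type and less RNA per cell cannot be told apart.

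Members also varied between mice of the same group. Over the 28 pairs of members, with group means subtracted, the correlation over 16 arrays had a median of 0.06, with 15 pairs positive and 13 negative, beside a median of 0.013 over all pairs of genes. Hmgcs1 and Idi1 correlated at r = 0.85 and rho = 0.69 (permutation within groups, p = 0.00064 for r and 0.0121 for rho, adjusted over the 28 pairs 0.0179 and 0.101). Without the 2 arrays farthest from the Hmgcs1 median, r was 0.77, and it was 0.88 within knockouts and 0.87 within wild types, that is within each slide. Of all gene pairs, 0.756% correlated at least as highly.

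The relation was weaker without the first slide column. Hmgcs1 and Idi1 were both lowest in replicate 1 of all 4 groups, as were 1098 of all genes (6.3%), and without those 4 arrays, chosen after seeing the data, r was 0.59 (adjusted permutation p = 0.645). Position on the slide and any shared handling of replicate 1 cannot be told apart.

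Hmgcs1 and Sqle correlated at r = 0.81 and rho = 0.83 (permutation p adjusted over the 28 pairs 0.0553 and 0.0658), with r = 0.79 without the 2 farthest arrays, 0.86 within knockouts and 0.75 within wild types, and without the first slide column r was 0.78 (adjusted permutation p = 0.192). Lss and Insig1, which differed in opposite directions by genotype, had a negative correlation within groups that missed the threshold (r = -0.68, rho = -0.68, adjusted permutation p = 0.116 and 0.101). The same held for Idi1 and Dhcr7 (r = -0.73, rho = -0.64, adjusted permutation p = 0.0707 and 0.101). Insig1 and Srebf2 correlated at r = 0.10 (adjusted permutation p = 0.838).

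**Figure D4:**
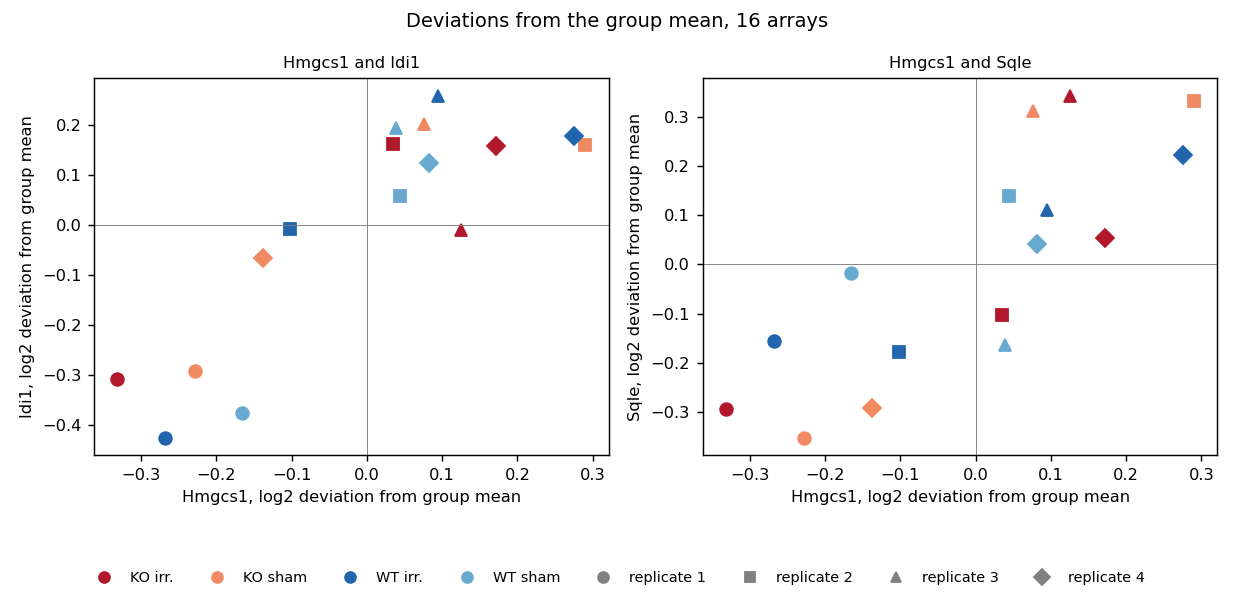
Points are the 16 arrays, each plotted as its deviation from its own group mean in log2 units, Hmgcs1 on the x axis against Idi1 (left) or Sqle (right) on the y axis, with colour for the group and shape for the replicate number. The 4 replicate 1 arrays (circles) lie at the lower left in the Idi1 panel, where r is 0.85 over all arrays and 0.59 without them.

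As a likeness to the members as a whole, each gene was correlated over the 16 arrays with the mean of the members' standardised values. Outside the list the highest were Gm31649 and Cul3 (r = 0.84 each), Oip5 and Fabp5 (0.83 each) and Msmo1 (0.82), of which Msmo1 is a sterol methyl oxidase of the same route and Fabp5 a fatty acid binding protein. Among the members themselves r was 0.84 for Sqle, 0.74 for Hmgcs1 and 0.68 for Fdft1, but 0.37 for Idi1, 0.28 for Insig1, 0.21 for Dhcr7, 0.12 for Srebf2 and 0.03 for Lss, so the mean profile mostly follows the first 3 of these. Each member is part of that mean, which raises its r, so these values are not comparable with those of genes outside the list. With group means subtracted, the nearest genes of the wider lists, named after their values were seen, all stood behind many other genes when ranked by r among 17379 genes. Mvk ranked 66 for Hmgcs1 (r = 0.93) and 80 for Sqle (0.91), and Stard4 ranked 49 for Idi1 (0.94). Fads2 ranked 22 for Fdft1 (0.87), Tm7sf2 18 for Lss (0.78), Srebf1 88 for Insig1 (0.65) and Fads1 174 for Srebf2 (0.51).

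No gene of the wider pathway was called for irradiation. Over both genotypes, 0 of 8 mevalonate and isoprenoid enzymes were called (Acat2 not analysed here), and likewise 0 of 13 squalene and sterol enzymes, 0 of 7 sensing genes, 0 of 9 uptake genes, 0 of 11 efflux and oxysterol genes and 0 of 9 fatty acid synthesis genes. Their median log2 differences were -0.05, -0.06, 0.03, -0.11, 0.12 and -0.05 in that order, beside 0.00 over all genes.

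Among the enzymes, Fdps, farnesyl diphosphate synthase, had a mean irradiation difference of -0.14, and Nsdhl, a sterol dehydrogenase, of -0.18 (adjusted p = 1 each). Ch25h, which makes 25-hydroxycholesterol, read -3.40, -2.58, -2.68 and -2.83 in irradiated knockouts and -4.12, -3.11, -2.92 and -3.33 in sham knockouts, and -2.35, -3.18, -1.93 and -2.77 in irradiated and -3.11, -3.56, -3.17 and -3.48 in sham wild types. Its groups overlapped in both genotypes, and the mean irradiation difference was 0.63 ± 0.20 SE, the greatest among the tested genes of these lists but not called (adjusted p = 0.558). Abca1, the cholesterol exporter, differed by -0.20 (adjusted p = 0.812) and Scarb1, a lipoprotein receptor, by -0.21 (1). The desaturases Fads2 and Scd1 differed by -0.27 (0.914) and -0.33 (1). These are values of the brightest probe of each gene. A second probe gave 0.01 for Abca1, 0.10 for Scarb1 and -0.02 for Fads2, none called. That of Abca1 was well above background on only 5 of 16 arrays.

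Between genotypes after irradiation, 0 of 8 mevalonate enzymes were called, 1 of 13 sterol enzymes (Lss, lower), 2 of 7 sensing genes (Insig1 higher, Scap lower), 0 of 9 uptake genes, 1 of 11 efflux genes (Mylip, lower) and 0 of 9 fatty acid genes. In sham mice none of the lists had a called gene. The list medians after irradiation were 0.05, -0.05, -0.0036, -0.06, -0.03 and 0.01 in that order, beside -0.03 over all genes.

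Scap, the escort that INSIG proteins hold back, read 2.98, 3.02, 2.95 and 3.12 in irradiated knockouts and 3.28, 3.49, 3.20 and 3.06 in sham knockouts, and 3.36, 3.66, 3.70 and 3.69 in irradiated and 3.50, 3.54, 3.57 and 3.63 in sham wild types. Knockouts lay below wild types in both treatments without overlap. The difference was -0.58 ± 0.10 SE after irradiation, 1.5-fold lower (adjusted p = 0.0198), and -0.31 ± 0.10 in sham mice (adjusted p = 0.486). Without 1 array at a time its adjusted p ran from 0.00961 to 0.0938 and stayed under 0.05 in 10 of 16 fits. It was lost without irradiated knockout or irradiated wild-type replicates 2, 3 or 4. With only the irradiated groups in the limma fit the Scap call was lost too (adjusted p = 0.0994).

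Mylip, the ubiquitin ligase that sends the LDL receptor to degradation, read -0.81, -0.67, -0.71 and -0.61 in irradiated knockouts and -0.51, -0.13, -0.59 and -0.50 in sham knockouts, and -0.45, 0.04, -0.02 and 0.01 in irradiated and -0.17, -0.15, 0.02 and -0.11 in sham wild types. After irradiation the groups did not overlap and Mylip was 1.51-fold lower in knockouts (-0.60 ± 0.12 SE, adjusted p = 0.0357), while in sham mice the difference was -0.33 (adjusted p = 0.536). Its adjusted p ran from 0.0108 to 0.136 without 1 array at a time, and stayed under 0.05 in 8 of 16 fits. It was lost without any 1 irradiated knockout, without irradiated wild-type replicates 2, 3 or 4 and without sham wild-type replicate 2. The Mylip call was also lost with the authors' deposited table of scores and with only the irradiated groups in the fit.

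Probes of 1 gene differed in size, in sign and in call among the lists too. Between genotypes after irradiation, the brighter and the dimmer probe differed in sign for some named genes. These were Abca1 (-0.35 and 0.42), Fads2 (-0.19 and 0.22), Scarb1 (-0.01 and 0.49) and Nr1h3 (-0.03 and 0.16). For Ggps1 the brightest probe gave 0.12 and the others -0.08 to -0.03. None of these probes was called. The probes of Acss2 and Pmvk shared a sign and were not called. Those of Cyp51 and Fads1 shared a sign as well. For Cyp51, lanosterol demethylase, the brighter probe differed by 0.10 between genotypes after irradiation (adjusted p = 0.642 with each probe tested by itself) and the dimmer one by 0.53 (adjusted p = 0.0276). For Fads1 the brighter probe differed by 0.22 (adjusted p = 0.376) and the dimmer one by 1.04 (adjusted p = 0.00816). With each probe tested by itself 1848 probes of 39589 were called in this contrast, 1623 higher and 225 lower in knockouts. The dimmer probes of Cyp51 and Fads1 and the probe of Insig1 lay on the side of most calls. The brightest Lss probe lay on the other side.

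The interaction, the irradiation difference in knockouts minus that in wild types, was called for 0 genes of any list. The members ranged from -0.13 for Dhcr7 to 0.23 for Insig1. In the lists, the values with the smallest p included 0.18 for Ggps1 and 0.20 for Pmvk among mevalonate enzymes, 0.16 for Cyp51 and 0.22 for Lbr among sterol enzymes, -0.28 for Scap, -0.26 for Mylip, 0.24 for Nr1h3, 0.26 for Acss2 and 0.17 for Fads1 (adjusted p = 0.9999 each).

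**Figure D5:**
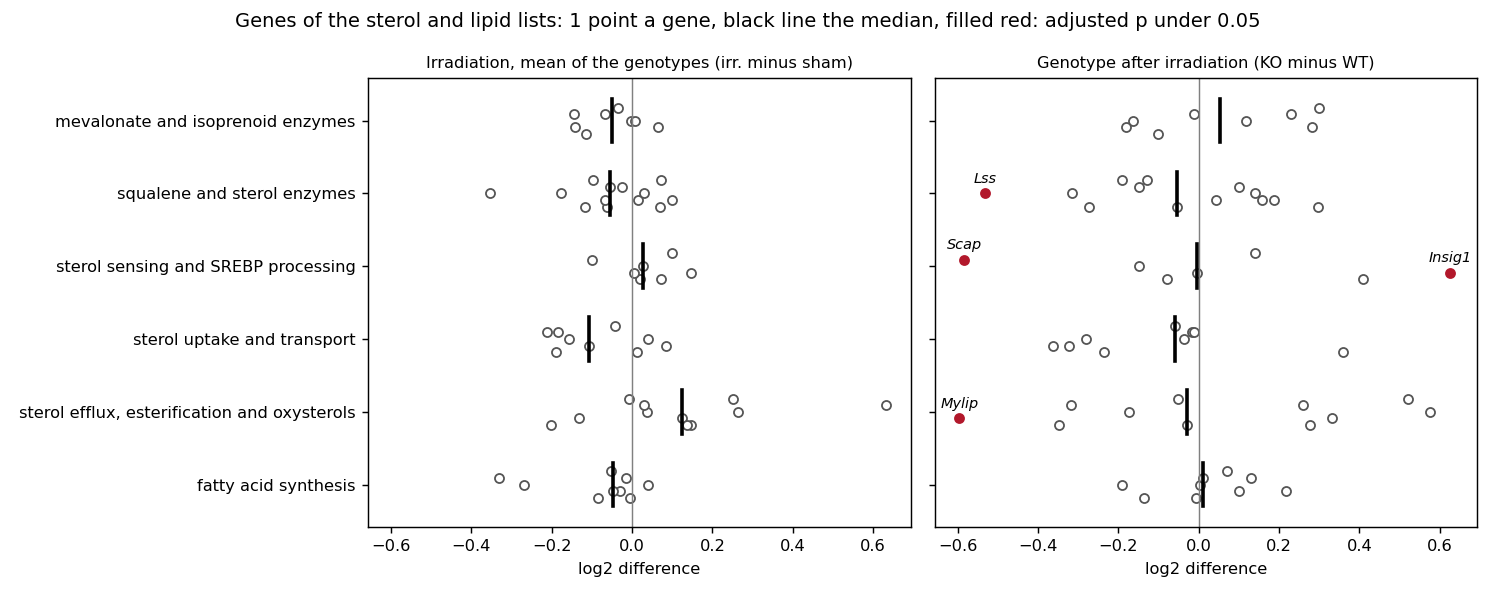
Each point is 1 gene of a pathway list, placed by its log2 difference on the x axis and its list on the y axis, for irradiation averaged over genotypes (left) and for genotype after irradiation (right), with the list median as a black line. Filled red points mark Insig1 (0.63), Scap (-0.58), Mylip (-0.60) and Lss (-0.53), all in the right panel.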

How the data were processed

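Single-colour Agilent arrays of 16 cortex samples were analysed, 1 per mouse, 4 in each group. Per the file headers, the deposited spot intensity is the processed signal of Agilent Feature Extraction 12.0.3.1, background-subtracted and not scaled between arrays. The authors also deposited a table of scores; no source used here says how it was made. Its columns share 1 set of quantiles with mean 0, and it served as an alternative only.

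Spots were averaged per probe, leaving out outlier flags, and set to log2 minus the array's 75th percentile. Of 56605 probes, 39589 were well above background on at least 4 of 16 arrays with a value on at least 12. RefSeq accessions (35886 probes) gave 32994 probes a symbol, and the brightest probe stood for each of 17436 genes. limma 3.58.1 in R 4.3.3 fitted 1 mean per group, with 6 contrasts and Benjamini-Hochberg adjustment over all genes, called at an adjusted p under 0.05. The script was tested on simulated data. The number of arrays limits the precision. Pair correlations used 100000 permutations within groups.

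The members and all lists were chosen with earlier results of these data known. Named genes are Neil1, the members, list genes called in any contrast, in each list up to 2 with the smallest p for the mean irradiation difference and up to 2 for the interaction, and the 5 genes most like the members' mean; 2 genes that this rule selects are not reported here. List genes given as nearest to a member, and markers named as examples, were named outside it after their values were seen. Markers of astrocytes, endothelium, choroid plexus and striatum were also tested, besides those of neurons, oligodendrocytes, their precursors and microglia. Alternatives were normexp on the median signal (the files hold no mean signal; offset 50), quantile normalization, the deposited table, 2 filters, fewer groups, a replicate block, a slide block, trended variances, each probe by itself, and leaving out arrays.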

Additional observations from a re-analysis of the deposited data

Results flagged for a closer look

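In 44 sets of 4 arrays (11 probes in 4 groups), 3 held an array far from the other 3 by Dixon's criterion at 95%, and chance gives about 1 in 20. The brightest Lss probe read 0.24 in sham knockout replicate 2, where the other sham knockouts lay between -0.20 and -0.17. The Lss probe A_55_P2807240 read -0.04 in irradiated knockout replicate 2, beside -0.50 to -0.49 in the others. Dhcr7 read -0.15 in irradiated wild-type replicate 1, beside -1.13 to -1.01 in the others.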

How the results depend on the processing

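The Insig1 and Lss differences after irradiation kept their sign under every alternative run on the brightest probe; the third Lss probe by itself gave 0.10. Both calls were lost with quantile normalization, with the deposited table (adjusted p = 0.0565 for Insig1, range over the alternatives 0.00306 to 0.116, and 0.0569 for Lss, range 0.00518 to 0.146), with only the groups compared and without the 4 arrays of slide column 1 (an alternative chosen after seeing the data; 0.0523 and 0.0783). The number of members called there was 2, 0 in each of these 4 settings, 1 with the replicate block and 0 to 2 without 1 array at a time. With the replicate number as a block the adjusted p was 0.045 for Insig1 and 0.0527 for Lss. The numbers were not taken to pair samples: same-numbered arrays of different groups deviated together (correlation over 0.1) in 11 of 24 pairs, with a median of 0.07, and 5 of 16 arrays correlated best with an array of their own number.

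Genes called for genotype after irradiation numbered 205 (143 higher, 62 lower), but 3378 with normexp (2822 higher, 556 lower), 89 with quantile normalization (37 higher, 52 lower), 81 with the deposited table (42 higher, 39 lower), 1798 without a filter, 18 with only the groups compared, 121 without slide column 1, 1848 with each probe by itself (1623 higher, 225 lower) and 17 to 470 without 1 array. In sham mice they numbered 9 (2 higher, 7 lower), but 2 with only the groups compared, 2 without slide column 1, 18 with each probe by itself and 5 to 14 without 1 array; the split was 5 higher and 6 lower with normexp and 4 higher and 8 lower with quantile normalization. For irradiation in knockouts they numbered 21 (13 higher, 8 lower), but 6 with only the groups compared, 13 with the replicate block, 7 without slide column 1 and 11 to 22 without 1 array; normexp gave 18 higher and 2 lower. In wild types they numbered 13, and 8 without slide column 1. For the mean irradiation difference they numbered 53 (29 higher, 24 lower), 19 without slide column 1, and normexp gave 33 higher and 7 lower. The causes were not tested.

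The Hmgcs1 and Idi1 correlation was 0.59 without slide column 1 and 0.81 to 0.87 without 1 array. Its adjusted permutation p missed the threshold in 3 of the fits without 1 array. The Hmgcs1 and Sqle correlation was 0.81 with normexp (adjusted permutation p = 0.0416) and 0.76 to 0.84 without 1 array. Its adjusted permutation p missed the threshold with all arrays but passed it in 4 of the fits without 1 array. The Neil1 difference for irradiation in knockouts turned to -0.038 with quantile normalization.

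Small uncalled differences changed sign. Values given with the deposited table are differences of its scores, so their size cannot be set against the log2 differences. For irradiation in wild types these were Sqle (-0.038 with normexp, -0.036 with quantile normalization, -0.01 with the deposited table), Dhcr7 (-0.06 without slide column 1) and Insig1 (-0.035 with normexp, -0.06 without slide column 1). For irradiation in knockouts they were Fdft1 (0.0032) and Dhcr7 (0.0094), and for the mean Dhcr7 (-0.025) and Srebf2 (-0.04), all without slide column 1, and Srebf2 with normexp (-0.03). For genotype in sham mice they were Hmgcs1 (0.013 without slide column 1), Fdft1 (-0.041 with normexp, -0.044 with quantile normalization, -0.005 with the deposited table, -0.02 without slide column 1) and Sqle (-0.007 with normexp, -0.011 with quantile normalization, -0.0025 with the deposited table). For genotype after irradiation they were Hmgcs1 (0.01) and Fdft1 (0.014) without slide column 1. For the interaction they were Hmgcs1 (0.049 with quantile normalization, 0.017 with the deposited table), Fdft1 (0.014 with quantile normalization, 0.005 with the deposited table, 0.034 without slide column 1) and Dhcr7 (0.07 without slide column 1).

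Without 1 array at a time, signs turned within these ranges. For irradiation in knockouts, Idi1 spanned -0.13 to 0.07, Dhcr7 -0.24 to 0.079 and Srebf2 -0.012 to 0.13. For irradiation in wild types, Fdft1 spanned -0.08 to 0.015, Sqle -0.064 to 0.07, Dhcr7 -0.15 to 0.18, Srebf2 -0.11 to 0.039 and Insig1 -0.048 to 0.083. For the mean, Dhcr7 spanned -0.10 to 0.079 and Srebf2 -0.026 to 0.059. For genotype after irradiation, Hmgcs1 spanned -0.10 to 0.10, Idi1 -0.24 to 0.0011, Fdft1 -0.16 to 0.027 and Dhcr7 -0.032 to 0.39. In sham mice, Hmgcs1 spanned -0.11 to 0.068, Fdft1 -0.045 to 0.069 and Sqle -0.10 to 0.13. For the interaction, Hmgcs1 spanned -0.092 to 0.11, Fdft1 -0.16 to 0.027, Lss -0.12 to 0.058 and Dhcr7 -0.32 to 0.099.

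Slide as a block was fitted for the mean irradiation difference (56 genes called). It leaves the irradiation differences within a genotype as they are and cannot be fitted for genotype, which coincides with slide.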
